A study of Homo sapiens with 42 samples.

Results

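SEM cells carrying the hairpin named sh5 were compared with SEM cells carrying a non-targeting hairpin named NT, in 3 libraries each. They were chosen by cell line and hairpin as given in the sample titles and make up 6 of the 42 samples of a study of NSD2 in B-cell acute lymphoblastic leukaemia (B-ALL). The study lowered NSD2 with short hairpin RNAs in the lines RS4;11 (RS411 in the titles), RCH-ACV (RCH in the titles) and SEM, and raised wild-type or mutant NSD2 from vectors in Reh and 697. Its design text gives sh2 as the hairpin against NSD2, and sh5 is known here from the sample titles alone. SEM is a B-cell precursor line from a childhood leukaemia with the KMT2A-AFF1 fusion, and it is known to carry the NSD2 p.E1099K substitution, as are RS4;11 and RCH-ACV. All SEM libraries, sh5, sh2 and NT, came from that line with no treatment recorded. The sources used here do not say which promoter drives the hairpins or whether an arm was a clone or a pool.

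NSD2 is a histone methyltransferase that places the dimethyl mark on lysine 36 of histone H3, a mark spread over active genes and the regions around them that opposes the repressive methylation of lysine 27. Its p.E1099K substitution, named in the title of the series, raises that activity and recurs in childhood B-ALL. Short hairpin RNAs are cut into small RNAs that guide the breakdown of the matching transcript, and each hairpin can also touch transcripts other than its target, so a pair of hairpins is usually set side by side.

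Total RNA depleted of ribosomal RNA had been sequenced and read counts per gene were analysed. Reads assigned to genes numbered 37608220 to 37910102 in the sh5 libraries and 34712553 to 37322506 in the NT libraries, with 0.0719% to 0.0824% and 0.0781% to 0.0937% of them from mitochondrial coding genes. Levels are given as CPM, read counts scaled to equal library totals after each total was adjusted by its TMM normalization factor. This allows a gene to be compared between libraries but not with another gene. Differences are log2 fold changes from edgeR's quasi-likelihood test with the replicate number as a block, and a gene is called when its adjusted p (Benjamini-Hochberg over all genes tested) was under 0.05. The labels do not say whether replicates came from separate cultures, and the p-values cover only the variation among these libraries, which may be technical.

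The markers of the label were still measured, though many of them changed in level. All 14 B-lymphoid markers and all 10 markers of KMT2A-AFF1 leukaemia were measured above 1 CPM in at least 1 library, and their summed levels were 2466 to 2734 CPM with sh5 and 2774 to 2948 CPM with NT for the B-lymphoid list, and 5207 to 5401 CPM with sh5 and 4760 to 5248 CPM with NT for the leukaemia list. Of the 14, 6 fell and 4 rose (71.4% called), and of the 10, 2 fell and 2 rose (40%), against 32.8% called over all genes tested. CD74 alone averaged 1019 CPM over the sh5 and NT libraries, so the B-lymphoid sum can hide changes in other members. Of 11 T and NK cell markers, 9 stayed under 1 CPM in every library and the rest of that list was TRAC and NKG7, from which nearly all of its sum of 80.7 to 97.6 CPM with sh5 and 86.3 to 103 CPM with NT came. Their defining members CD3D and CD3G had no reads in the sh5 or NT libraries. Of 10 erythroid and megakaryocytic markers 9 stayed under 1 CPM, and the list summed to 1.98 to 2.70 CPM with sh5 and 2.90 to 4.17 CPM with NT. Stromal and epithelial markers summed to 143 to 165 CPM with sh5 and 105 to 129 CPM with NT, nearly all of it from PDGFRB, a receptor also found on leukaemia cells, while LUM was at 0 and EPCAM and KRT18 were near 0 in both arms. In RNA from whole cultures, more transcript per cell and more cells of a kind cannot be told apart.

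NSD2, listed under its older symbol WHSC1, was lower with sh5 than with NT. It reached 132, 146 and 146 CPM in the sh5 libraries, against 331, 335 and 364 CPM in the NT libraries. Every sh5 library lay below every NT library, and the log2 fold change was -1.28 ± 0.04 (SE, adjusted p = 7.31e-14). With 3 values an arm, the two-sided exact permutation p was 0.1, which is the smallest such a test can give. Of the other methyltransferases that act on lysine 36, NSD1 had a log2 fold change of 0.07 ± 0.05 (adjusted p = 0.28), NSD3 of -0.11 ± 0.04 (adjusted p = 0.0584) and SETD2, the trimethylating enzyme, of -0.02 ± 0.05 (adjusted p = 0.791). None of these 3 was called. Among 29 tested enzymes and readers of the lysine 36 and lysine 27 marks, NSD2 itself, PSIP1 and KDM4C fell and 3 rose, which is 20.7% called against 32.8% of all 17042 genes tested. With library factors by the RLE method 2 rose and 7 fell, and without the replicate block 2 rose and 2 fell. PSIP1 encodes LEDGF, a reader of the lysine 36 mark and a partner of KMT2A, and it averaged 209.9 ± 1.01 CPM with sh5 and 274 ± 3.62 CPM with NT (SD, n = 3 each), a log2 fold change of -0.39 ± 0.04 (adjusted p = 5.06e-07). KDM4A, a demethylase of lysine 36 and lysine 9, rose by 0.20 ± 0.05 on the log2 scale, and DNMT3B, whose protein reads the lysine 36 mark, by 0.28 ± 0.06.

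The change reached far beyond these genes. Of 17042 genes tested, 5591 were called, or 32.8%, of which 3016 (17.7% of those tested) were higher and 2575 (15.1%) lower with sh5. The counts of called list members against NT given below are to be read beside these shares. Changes of at least 2-fold were found for 313 of the higher and 657 of the lower genes. Without the replicate block 3623 genes were called, 1889 higher and 1734 lower, and 3622 of them were shared with the blocked fit. List counts without the block are to be read beside these counts, of the same 17042 genes. On the first principal component, which held 59% of the variance among the 9 SEM libraries, the sh5 libraries lay at 0.843 to 2.66, the sh2 libraries at 24.5 to 25.6 and the NT libraries at -27.4 to -26.4. On the second, with 19% of the variance, the sh5 libraries stood alone at -17.4 to -16.5, against 6.28 to 10.0 for the other 6. Every NT library had fewer reads than every sh5 library, and the share of mitochondrial reads overlapped between them.

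**Figure D1:**
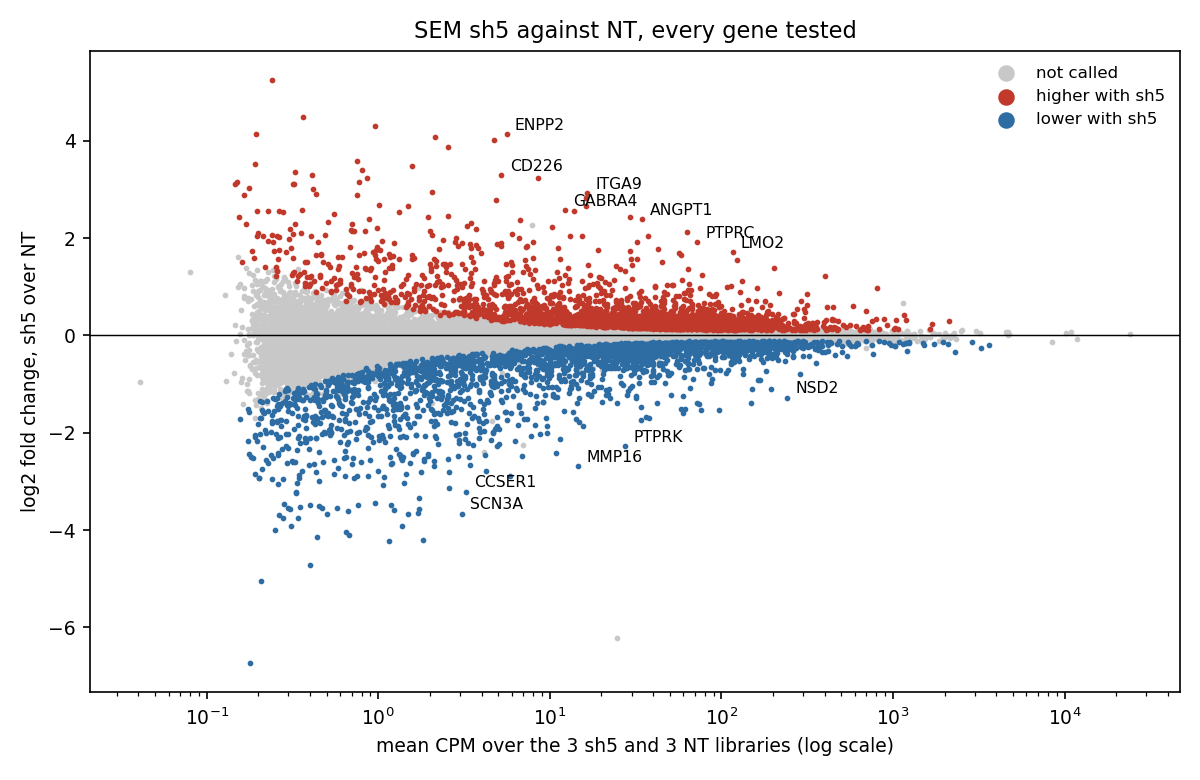
Log2 fold change of sh5 over NT for each of 17042 genes tested in SEM, plotted against mean CPM on a log axis, with called genes in red (3016 higher) and blue (2575 lower). NSD2 lies at -1.28, and genes such as ENPP2, ITGA9 and ANGPT1 sit above 2 while SCN3A, MMP16 and PTPRK sit below -2.

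The 12 genes that rose most, of those called with at least 5 CPM in 1 arm and arms that did not overlap, had log2 fold changes of 2.39 to 4.14. Non-overlap by itself was common, at 35.6% of genes tested. ENPP2 encodes autotaxin, the secreted enzyme that makes lysophosphatidic acid, and it reached 11, 11 and 9.84 CPM in the sh5 libraries, against 0.813, 0.403 and 0.587 CPM in the NT libraries, a log2 fold change of 4.14 ± 0.17 (adjusted p = 1.17e-12). CD226, an adhesion receptor best known on NK and T cells, reached 10.5, 9.33 and 8.63 CPM in the sh5 libraries, against 0.871, 0.888 and 1.12 CPM in the NT libraries (3.29 ± 0.16, adjusted p = 1.04e-11). CD86, the costimulatory ligand of CD28, averaged 27.9 ± 0.668 CPM with sh5 and 4.47 ± 1.23 CPM with NT (2.66 ± 0.12, adjusted p = 9.16e-10). ENPP2 and CD226 were thus close to 1 CPM or below in the NT libraries, while CD86 was clearly measurable there.

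ITGA9, the alpha 9 integrin chain, was at 30.9, 28 and 28.4 CPM in the sh5 libraries, against 4.09, 3.52 and 3.90 CPM in the NT libraries (2.92 ± 0.09, adjusted p = 2.41e-14). PLCB1, a phospholipase C that acts downstream of G protein-coupled receptors, was at 13.9, 15.8 and 16.9 CPM in the sh5 libraries, against 1.68, 1.45 and 1.79 CPM in the NT libraries (3.24 ± 0.13, adjusted p = 5.45e-13). UST, a sulphotransferase of dermatan and chondroitin sulphate, averaged 28.4 ± 1.39 CPM with sh5 and 3.98 ± 0.186 CPM with NT, a 7.13-fold difference. In PLCB1 and ITGA9 the lowest sh5 library was several times as high as the highest NT library.

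ANGPT1, a ligand of the receptor TIE2, was at 51.1, 60.6 and 61.2 CPM in the sh5 libraries, against 10.7, 10.8 and 11.4 CPM in the NT libraries (2.39 ± 0.06, adjusted p = 1.54e-15). CPT1A, which controls the entry of fatty acids into mitochondria, averaged 23.7 ± 4.28 CPM with sh5 and 4.06 ± 0.912 CPM with NT (2.55 ± 0.08, adjusted p = 4.39e-14). CCNA1, cyclin A1, averaged 49.3 ± 2.24 CPM with sh5 and 9.14 ± 0.382 CPM with NT (2.43 ± 0.08, adjusted p = 3.76e-14). The secreted factor EGFL7 (2.78 ± 0.17) and the GABA receptor chain GABRA4 (2.58 ± 0.09) complete the group together with NAPSB (4.01 ± 0.15), a transcribed pseudogene whose reads may be shared with its close relative NAPSA, so its count is uncertain.

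**Figure D2:**
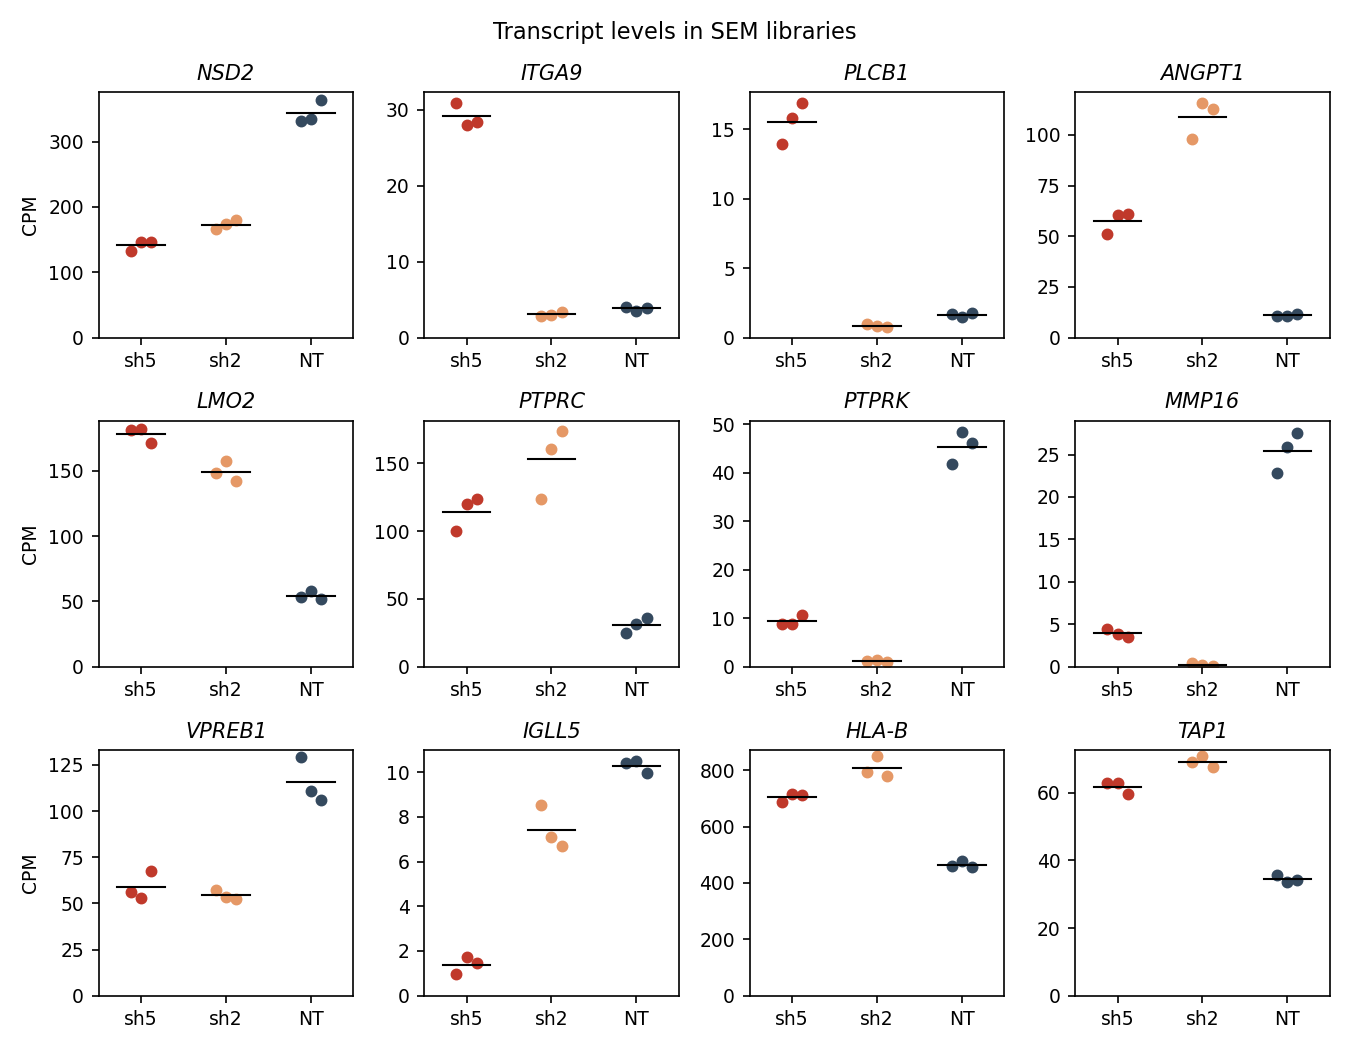
CPM of 12 genes in each SEM library, with a panel per gene and its own axis from 0, points for replicates 1 to 3 and a line at the mean, in the order sh5, sh2, NT. NSD2 lies near 142 CPM with sh5 and 343 CPM with NT, and ITGA9 and PLCB1 are high with sh5 alone among the 3 arms.

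The 12 genes that fell most, chosen in the same way, had log2 fold changes of -3.66 to -2.28, and several of their sh5 levels rest on few reads. SCN3A, a voltage-gated sodium channel of neurons, was at 0.58, 0.401 and 0.37 CPM in the sh5 libraries, against 6.33, 5.89 and 4.89 CPM in the NT libraries (-3.66 ± 0.20, adjusted p = 7.35e-11). MMP16, a membrane-bound matrix metalloproteinase, was at 4.40, 3.88 and 3.55 CPM in the sh5 libraries, against 22.8, 25.8 and 27.6 CPM in the NT libraries (-2.69 ± 0.13, adjusted p = 4.42e-10). PTPRK, a receptor tyrosine phosphatase that engages in cell-cell contact, was at 8.78, 8.72 and 10.6 CPM in the sh5 libraries, against 41.8, 48.3 and 46.1 CPM in the NT libraries (-2.28 ± 0.08, adjusted p = 1.26e-13). MMP16 and PTPRK kept a clear signal with sh5, while SCN3A was left with less than 1 CPM in every sh5 library.

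NELL2, a secreted protein of the nervous system, averaged 3.46 ± 0.446 CPM with sh5 and 18.4 ± 0.446 CPM with NT (-2.41 ± 0.11, adjusted p = 3.74e-12). ETV1, an ETS transcription factor that responds to the ERK pathway, averaged 1.68 ± 0.458 CPM with sh5 and 8.12 ± 0.541 CPM with NT (-2.28 ± 0.16, adjusted p = 3.09e-09). The scaffold protein MPDZ fell by 6.95-fold and CLGN, an endoplasmic reticulum chaperone of the testis, by 5.67-fold. CCSER1 (-3.21 ± 0.18), RNF150 (-2.66 ± 0.22), TTC38 (-2.48 ± 0.33) and the microtubule-associated protein gene EML5 (-2.45 ± 0.17) made up the rest with IGLL5. IGLL5 was at 0.976, 1.71 and 1.46 CPM in the sh5 libraries, against 10.4, 10.5 and 9.96 CPM in the NT libraries (-2.90 ± 0.16, adjusted p = 9.83e-11), but it shares sequence with IGLL1 and the lambda light chain locus, so its count is uncertain.

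Genes of antigen presentation on major histocompatibility complex (MHC) molecules rose as a group. MHC class I displays peptides from inside the cell to cytotoxic T cells, and class II displays peptides from the endocytic route to helper T cells. Of 20 class I genes tested, 18 rose and none fell, with a median log2 fold change of 0.34 over the 20, against 17.7% higher and a median of -0.01 over all genes tested. Of 18 class II genes, 15 rose and none fell, with a median of 0.29. Without the replicate block 13 and 12 were called, again all higher. HLA genes are close copies of one another, so reads may have been split among them or lost.

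TAP1, a chain of the transporter that carries peptides into the endoplasmic reticulum, was at 62.8, 63 and 59.7 CPM in the sh5 libraries, against 35.6, 33.5 and 34.1 CPM in the NT libraries (0.84 ± 0.05, adjusted p = 2.32e-10). NLRC5, the transactivator of class I genes, was at 64.7, 62.6 and 53 CPM in the sh5 libraries, against 32.8, 32.2 and 31.3 CPM in the NT libraries (0.90 ± 0.06, adjusted p = 3.89e-10). HLA-B, a classical heavy chain, was at 688, 716 and 712 CPM in the sh5 libraries, against 459, 478 and 456 CPM in the NT libraries (0.60 ± 0.04, adjusted p = 2.85e-09). The arms did not overlap in any of these genes, as was true of 35.6% of all genes tested.

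B2M, the light chain shared by all class I molecules, averaged 1324 ± 32.1 CPM with sh5 and 1067 ± 41.2 CPM with NT (0.31 ± 0.05, adjusted p = 2.41e-05). The subunits of the immunoproteasome, which cuts proteins into peptides fit for class I, rose by 0.61 (PSMB9), 0.48 (PSMB8) and 0.31 (PSMB10) on the log2 scale, and the activator chains by 0.37 (PSME2) and 0.25 (PSME1). The chaperones of the loading complex moved less, at 0.29 for CALR and 0.15 for TAPBP. ERAP1, the aminopeptidase that trims peptides, was not called at 0.01 ± 0.04 (adjusted p = 0.833), and neither was the editor TAPBPL at 0.21 ± 0.08 (adjusted p = 0.0567).

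The bases before the start of 4 of these genes are shown because they hold the letters of the core of an interferon-stimulated response element, the site bound by interferon regulatory factors. Each run is the 250 bases before the RefSeq start on GRCh38.p14, read along the gene's strand, with each match in capitals, a match being GAAA, any 2 bases and GAAA, or TTTC, any 2 bases and TTTC for the other strand. Overlapping matches run together. TAP1 lies at chr6:32853705-32853954 on the minus strand with 2 matches, B2M at chr15:44711267-44711516 on the plus strand with 2, PSME2 at chr14:24146611-24146860 on the minus strand with 1, and PSMB10 at chr16:67936851-67937100 on the minus strand with 1.
TAP1: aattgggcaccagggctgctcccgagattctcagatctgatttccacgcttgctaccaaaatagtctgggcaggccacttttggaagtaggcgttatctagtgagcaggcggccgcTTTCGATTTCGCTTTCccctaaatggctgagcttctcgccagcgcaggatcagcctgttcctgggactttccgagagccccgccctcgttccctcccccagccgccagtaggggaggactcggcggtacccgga
B2M: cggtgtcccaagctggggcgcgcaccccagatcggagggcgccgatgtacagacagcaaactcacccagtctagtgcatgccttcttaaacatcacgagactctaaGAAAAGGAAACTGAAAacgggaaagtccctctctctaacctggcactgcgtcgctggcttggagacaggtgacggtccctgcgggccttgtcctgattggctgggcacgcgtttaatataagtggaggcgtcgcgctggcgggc
PSME2: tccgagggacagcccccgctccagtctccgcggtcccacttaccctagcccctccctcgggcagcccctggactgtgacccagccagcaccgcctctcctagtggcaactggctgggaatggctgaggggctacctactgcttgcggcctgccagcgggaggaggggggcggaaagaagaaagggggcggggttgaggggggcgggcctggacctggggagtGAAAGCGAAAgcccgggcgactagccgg
PSMB10: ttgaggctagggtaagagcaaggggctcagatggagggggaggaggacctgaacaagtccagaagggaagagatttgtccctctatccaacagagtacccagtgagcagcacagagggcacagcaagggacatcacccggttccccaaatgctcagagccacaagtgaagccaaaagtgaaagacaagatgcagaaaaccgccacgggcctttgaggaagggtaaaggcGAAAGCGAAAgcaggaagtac

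The matches began 134 and 128 bases before the start of TAP1, 144 and 138 before B2M, 28 before PSME2 and 21 before PSMB10. In windows of 300 bases, from 250 before to 50 after the start, the letters occurred in 9 of the 17 class I genes with a RefSeq window (52.9%), in none of 15 class II genes, and in 996 of all 27305 windows (3.65%). Of those 9 class I genes 7 rose, beside 18 of all 20 class I genes tested, with or without the letters. ERAP1, which was not called, holds the letters too, as does TAP2, which was not matched to a row of counts. This motif was searched after the expression values had been seen. A match is a string of letters in a window and was not tested as a binding site in these cells.

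Within class II, HLA-DQA1 changed most, at 12.1, 10.9 and 12.2 CPM in the sh5 libraries, against 4.53, 5.06 and 4.30 CPM in the NT libraries (1.35 ± 0.10, adjusted p = 6.81e-09). HLA-DRB1 averaged 149.7 ± 4.29 CPM with sh5 and 112 ± 10.1 CPM with NT (0.42 ± 0.05, adjusted p = 1.86e-06), and HLA-DPB1 changed by 0.39 ± 0.05 (adjusted p = 3.12e-06). CIITA, the master regulator of class II genes, rose by 0.31 ± 0.05 (adjusted p = 5.13e-05), and 2 chains of the RFX complex that binds class II promoters, RFX5 and RFXANK, by 0.28 ± 0.04 and 0.25 ± 0.05. The third chain, RFXAP, was not called at -0.23 ± 0.10 (adjusted p = 0.0901). CD74, the invariant chain, rose by 0.14 ± 0.05 (adjusted p = 0.03).

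**Figure D3:**
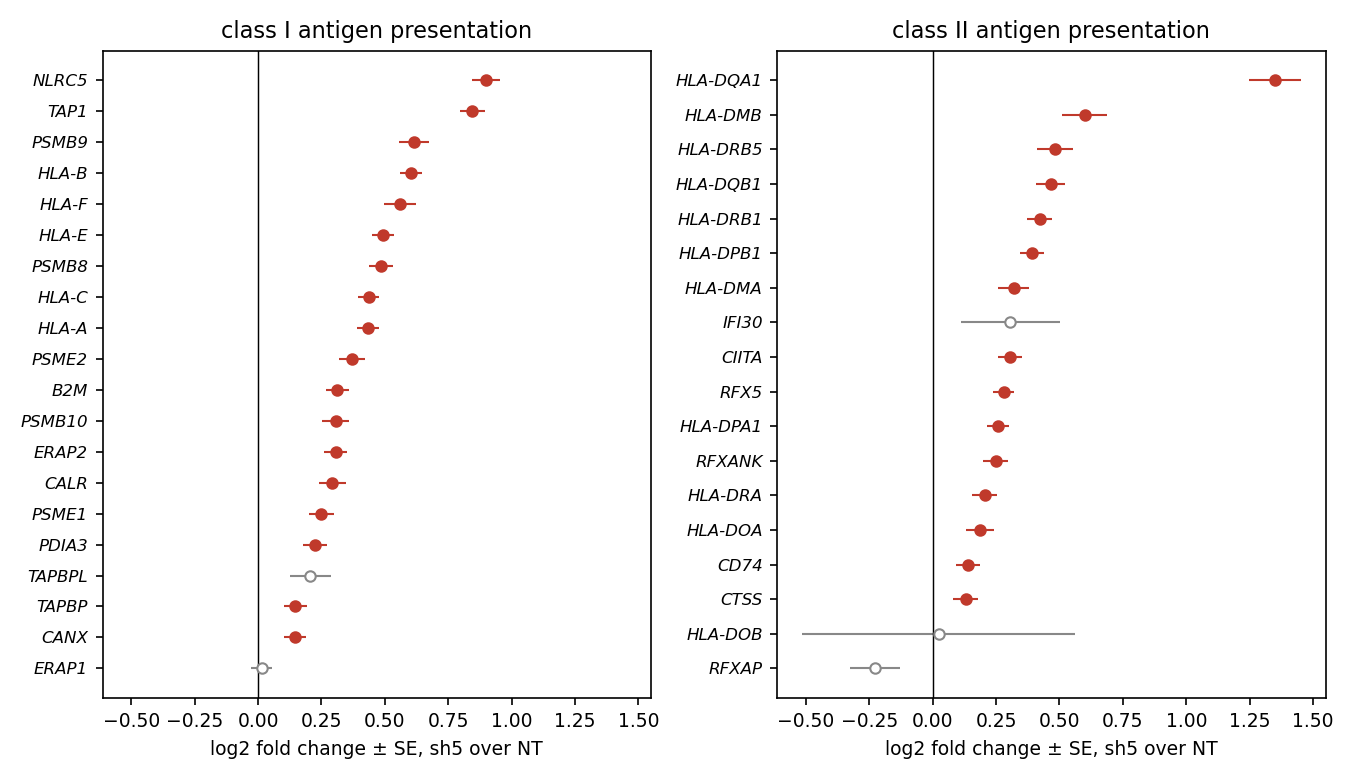
Log2 fold change ± SE of sh5 over NT for 20 class I and 18 class II antigen presentation genes in SEM, filled red points marking called genes and open grey points the others. All 33 called genes lie to the right of 0, from 0.13 for CTSS to 1.35 for HLA-DQA1.

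Interferon response genes moved in both directions. Of 37 tested, 15 rose and 4 fell, with a median of 0.16. GBP2, an interferon-induced GTPase, was at 25.6, 22.2 and 28.7 CPM in the sh5 libraries, against 11.8, 12.9 and 11.5 CPM in the NT libraries (1.08 ± 0.09, adjusted p = 2.16e-08), and the exonuclease gene ISG20 was at 45.5, 42.2 and 45.2 CPM in the sh5 libraries, against 22.1, 25.7 and 22.4 CPM in the NT libraries (0.92 ± 0.07, adjusted p = 4.49e-09). OAS2 (0.65), IFIT1 (1.24), BST2 (0.52) and ISG15 (0.47) rose, while MX2 (-0.75), OAS3 (-0.57), IFITM1 (-1.08) and RSAD2 (-0.70) fell. The letters of the response element occurred in 19 of 27 of these genes with a promoter window (70.4%), of which 6 rose and 2 fell, beside the 15 and 4 of all 37 tested. Of the transcription factors of the pathway, STAT2 rose by 0.23 ± 0.06, IRF1 by 0.28 ± 0.04 and IRF7 by 0.30 ± 0.05.

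Genes of B-cell development changed widely and in both directions. In the pre-B receptor and V(D)J recombination list, 15 of 18 genes tested were called, 9 higher and 6 lower. The surrogate light chain, which pairs with the newly made heavy chain at the pre-B stage, fell in both its parts. VPREB1 was at 56, 53.1 and 67.7 CPM in the sh5 libraries, against 129, 111 and 106 CPM in the NT libraries (-0.97 ± 0.09, adjusted p = 5.70e-05). IGLL1, uncertain for the sequence it shares with IGLL5, was at 96.6, 115 and 132 CPM in the sh5 libraries, against 218, 207 and 214 CPM in the NT libraries (-0.91 ± 0.07, adjusted p = 3.93e-06). VPREB3, a relative of VPREB1, averaged 6.68 ± 0.329 CPM with sh5 and 24.4 ± 4.18 CPM with NT (-1.86 ± 0.12, adjusted p = 1.10e-08). The arms did not overlap in any of the 3, which by itself was common (35.6% of all genes tested).

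RAG2, part of the recombinase that joins antigen receptor gene segments, moved the other way, at 6.91, 7.25 and 9.13 CPM in the sh5 libraries, against 2.12, 1.61 and 2.64 CPM in the NT libraries (1.87 ± 0.14, adjusted p = 7.67e-09). DNTT, which adds bases at the joins, averaged 2.41 ± 0.605 CPM with sh5 and 1.17 ± 0.237 CPM with NT (1.04 ± 0.21, adjusted p = 6.62e-04), and the adaptor BLNK averaged 3.83 ± 0.71 CPM with sh5 and 1.67 ± 0.293 CPM with NT (1.19 ± 0.17, adjusted p = 2.70e-05). The kinases of pre-B receptor signalling rose by smaller amounts, LYN by 0.39, SYK by 0.29, BLK by 0.27 and BTK by 0.11.

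Of 20 B-cell surface antigens, 11 fell and 4 rose, with a median of -0.22. CD22, an inhibitory receptor and antibody target in B-ALL, was at 81.6, 87.9 and 86.2 CPM in the sh5 libraries, against 107, 116 and 122 CPM in the NT libraries (-0.44 ± 0.04, adjusted p = 3.29e-07). CD72 (-0.29), CD81 (-0.26) and the TNF receptor family member CD40 (-0.86) were also lower. MS4A1, which encodes the antibody target CD20, averaged 0.548 ± 0.158 CPM with sh5 and 1.95 ± 0.208 CPM with NT (-1.84 ± 0.26, adjusted p = 2.09e-05). CD44, a hyaluronan receptor, rose, at 144, 143 and 168 CPM in the sh5 libraries, against 66.3, 76.5 and 82.6 CPM in the NT libraries (1.02 ± 0.06, adjusted p = 2.33e-09). MME, which encodes the CD10 antigen and is typically missing from KMT2A-rearranged B-ALL, averaged 0.0976 ± 0.0939 CPM with sh5 and 0.378 ± 0.0997 CPM with NT, and its fall passed the test at that low level (adjusted p = 0.0316). CD38, another antibody target, rose by 0.42 ± 0.09, although its arms overlapped.

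Of 28 B-lineage transcription factors, 10 fell and 6 rose, beside 15.1% lower and 17.7% higher over all genes tested. EBF1, a determinant of B-cell commitment, was at 162, 165 and 169.8 CPM in the sh5 libraries, against 213, 225 and 241 CPM in the NT libraries (-0.45 ± 0.04, adjusted p = 1.62e-07). SPIB, an ETS factor of B cells, averaged 7.13 ± 1.55 CPM with sh5 and 15.1 ± 0.59 CPM with NT (-1.10 ± 0.10, adjusted p = 1.34e-07). SOX4 (-0.50), IKZF3 (-1.61), BACH2 (-0.59) and IRF4 (-0.33) fell as well. IRF8, a factor of B cells and myeloid cells, was at 223, 227 and 217 CPM in the sh5 libraries, against 131, 137 and 138 CPM in the NT libraries (0.71 ± 0.04, adjusted p = 3.03e-10), and TCF4 (1.11) and BCL6 (0.35) rose with it.

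Regulators of stem and progenitor cells rose where they changed, 6 of 12 tested with none lower, beside 17.7% higher and 15.1% lower over all genes. LMO2, a partner of the blood stem cell transcription factors, was at 182, 182 and 172 CPM in the sh5 libraries, against 53.1, 57.6 and 51.9 CPM in the NT libraries (1.72 ± 0.04, adjusted p = 1.71e-15). ANGPT1 and EGFL7, described above, belong to this list, and the rest, BMI1 (0.29), LYL1 (0.19) and HHEX (0.16), moved little. The genes that the KMT2A fusion is known to switch on moved less. Of 23 such genes 3 rose, namely LMO2, PBX3 (0.49 ± 0.05) and CDK6 (0.14 ± 0.04), and 3 fell, namely RUNX2 (-0.59 ± 0.08), ZC3H12C (-0.15) and GNAQ (-0.13), or 26.1% called against 32.8% of all genes. Without the block 2 rose and 1 fell, and with DESeq2 4 rose and 1 fell. HOXA9 averaged 48.3 ± 6.12 CPM with sh5 and 48.9 ± 2.61 CPM with NT (-0.02 ± 0.05, adjusted p = 0.788), and MEIS1 had a log2 fold change of -0.05 ± 0.04 (adjusted p = 0.387).

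Markers of myeloid cells had a higher summed level with sh5. The summed level was 54.6 to 70.6 CPM with sh5 and 26.0 to 33.1 CPM with NT, and of 12 genes 5 were tested, 3 rose and none fell. CD33 (-0.19 ± 0.12, adjusted p = 0.248) and CEBPA (0.20 ± 0.10, adjusted p = 0.135) were not called. CSF1R, the receptor of macrophage colony-stimulating factor, was at 38.3, 47 and 46.1 CPM in the sh5 libraries, against 12.7, 16.8 and 18.9 CPM in the NT libraries (1.45 ± 0.07, adjusted p = 8.20e-12). LYZ, lysozyme, was at 3.24, 7.68 and 6.48 CPM in the sh5 libraries, against 0.813, 1.13 and 1.5 CPM in the NT libraries (2.31 ± 0.17, adjusted p = 5.61e-09), and ITGAM changed by 0.97 ± 0.19 (adjusted p = 5.13e-04). S100A8, S100A9, ELANE and FCGR3A had no reads in any sh5 or NT library, and MPO averaged 0.203 ± 0.0322 CPM with sh5 and 0.0625 ± 0.0557 CPM with NT. The part of these markers in the other results was not tested.

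Adhesion molecules changed strongly. Among 26 integrins, selectins and homing receptors, 14 rose and 7 fell, with a median of 0.24, beside 17.7% higher and 15.1% lower over all genes. Besides ITGA9, the laminin-binding chain ITGA6 was at 76.5, 63.7 and 61.2 CPM in the sh5 libraries, against 22.6, 21.5 and 26.4 CPM in the NT libraries (1.51 ± 0.08, adjusted p = 3.74e-09). ITGA4, the alpha 4 chain that binds VCAM1 and fibronectin, was at 382, 355 and 349.7 CPM in the sh5 libraries, against 211, 235 and 218 CPM in the NT libraries (0.71 ± 0.05, adjusted p = 2.09e-09). Its partner in gut homing, ITGB7, fell, at 90.6, 95.1 and 107 CPM in the sh5 libraries, against 170.1, 171 and 165 CPM in the NT libraries (-0.79 ± 0.05, adjusted p = 7.87e-10). CXCR4, the receptor that holds precursor cells in marrow, fell by 0.21 ± 0.05 on the log2 scale (adjusted p = 0.00573), and the lymph node homing receptor gene CCR7 (-1.28) fell to 0.521 ± 0.0904 CPM with sh5, against 1.27 ± 0.22 CPM with NT.

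Receptor-type tyrosine phosphatases split in direction, with 5 of 12 higher and 3 lower (17.7% and 15.1% over all genes). PTPRC, which encodes the leukocyte antigen CD45, was at 99.8, 119.6 and 124 CPM in the sh5 libraries, against 24.6, 31.3 and 35.6 CPM in the NT libraries (1.91 ± 0.05, adjusted p = 2.54e-15). Beside PTPRK, PTPRD was at 0.0791, 0.187 and 0.291 CPM in the sh5 libraries, against 3.48, 3.34 and 3.52 CPM in the NT libraries (-4.20 ± 0.29, adjusted p = 1.62e-09). PTPRF rose by 1.51 ± 0.18 (adjusted p = 2.88e-06). PTPRC was thus 3.77-fold higher with sh5, while PTPRD was close to 0 in every sh5 library.

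Cadherins fell more often than they rose. Of 21 tested, 10 fell and 3 rose, with a median of -0.57. DSG2, a desmosomal cadherin, was at 28.9, 31.1 and 35.8 CPM in the sh5 libraries, against 84.6, 90.5 and 97.7 CPM in the NT libraries (-1.51 ± 0.07, adjusted p = 8.12e-10). CDH2, N-cadherin, averaged 31.7 ± 0.851 CPM with sh5 and 62.5 ± 3.16 CPM with NT (-0.98 ± 0.06, adjusted p = 9.90e-10), and PCDH9 and DSC2 fell, with log2 fold changes of -1.90 ± 0.14 and -2.47 ± 0.23. CDH6, a kidney cadherin, rose by 3.02 ± 0.69, at 0.318 ± 0.026 CPM with sh5 and 0.0366 ± 0.0409 CPM with NT. Ion channels likewise fell more often, with 9 of 18 lower, 2 higher and a median of -0.59. Besides SCN3A, the sodium channel SCN9A averaged 0.195 ± 0.109 CPM with sh5 and 2.18 ± 0.263 CPM with NT (-3.48 ± 0.31, adjusted p = 6.68e-08). KCNJ2, an inward rectifier potassium channel, changed by -1.54 ± 0.11 and KCNMA1, the large-conductance potassium channel, by -0.78 ± 0.07, whereas KCNN4, the calcium-activated channel of lymphocytes, rose by 0.72 ± 0.07 (adjusted p = 1.21e-07).

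Among 32 genes of axon guidance and neural adhesion 14 fell and 10 rose. NCAM1, the neural cell adhesion molecule, was at 0.369, 0.588 and 0.635 CPM in the sh5 libraries, against 3.77, 4.68 and 5.45 CPM in the NT libraries (-3.13 ± 0.21, adjusted p = 1.73e-09), and NEO1, the netrin receptor neogenin, averaged 14.2 ± 1.03 CPM with sh5 and 30.3 ± 2.10 CPM with NT (-1.09 ± 0.07, adjusted p = 1.17e-09). SLIT2, a secreted guidance cue that binds ROBO receptors, changed by -2.92 ± 0.32 (adjusted p = 8.52e-07). SEMA3A (0.35), ROBO1 (0.31) and the ephrin EFNB2 (1.25) rose. Of 21 collagens, laminins and matrix proteases, 4 rose, with the laminin chain LAMA3 at 1.04 ± 0.09, and 6 fell, and without the block 2 and 3 were called. The count of higher genes in this list was near the 17.7% over all genes, where 15.1% were lower.

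Among 23 genes of the interleukin 7 receptor and JAK-STAT signalling 11 rose and 6 fell. STAT5A, which carries the signal of the interleukin 7 receptor, was at 34.2, 35.7 and 38.8 CPM in the sh5 libraries, against 16.2, 19.6 and 19.5 CPM in the NT libraries (0.98 ± 0.06, adjusted p = 6.70e-10). IL4R, the interleukin 4 receptor chain, averaged 21.4 ± 3.11 CPM with sh5 and 10.8 ± 0.933 CPM with NT (0.98 ± 0.08, adjusted p = 7.99e-09). JAK2 rose by 0.61 ± 0.09, while JAK1 (-0.25), JAK3 (-0.23), IL7R (-0.19) and the kinase gene PIM1 (-0.50) fell. Of the inhibitors of the pathway, SOCS3 rose (0.78 ± 0.22) and SOCS1 fell (-1.45 ± 0.40, adjusted p = 0.00797).

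Feedback and immediate early genes of the ERK pathway fell more often than they rose, 13 against 4 of 30, with 6 against 2 without the block. With the block, 15.1% of all genes tested were lower and 17.7% higher. The phosphatase DUSP6 changed by -0.40 ± 0.05 (adjusted p = 1.18e-06), and SPRY4 (-0.62), SPRY1 (-0.59) and SPRED1 (-0.27), inhibitors of the pathway, fell with it. FOSL2, a component of the AP-1 factor, went against the rest, at 285, 304 and 285 CPM in the sh5 libraries, against 97.4, 118 and 122 CPM in the NT libraries (1.38 ± 0.05, adjusted p = 2.69e-13). Some immediate early genes differed more between replicate numbers than between arms. JUN was at 58.3, 5.51 and 11.4 CPM in the sh5 libraries, against 82.1, 16.2 and 25.8 CPM in the NT libraries and FOS at 94.9, 25.5 and 61.6 CPM in the sh5 libraries, against 54.6, 21.7 and 49.4 CPM in the NT libraries, with replicate 1 the highest in each arm. Within each number JUN was lower with sh5 (-0.99 ± 0.24, adjusted p = 0.0381) and FOS higher (0.47 ± 0.10, adjusted p = 0.00736).

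Genes tied to drugs used in B-ALL changed modestly. NR3C1, the glucocorticoid receptor, averaged 242 ± 3.64 CPM with sh5 and 211 ± 11.9 CPM with NT (0.20 ± 0.04, adjusted p = 0.00206). Of 22 genes of the receptor and its response, 5 rose and 7 fell, beside 17.7% higher and 15.1% lower over all genes. Without the block 4 rose and 2 fell. The target genes TSC22D3 and SGK1 rose by 0.27 ± 0.07 and 0.36 ± 0.06, but the list as a whole had no single direction. Its median was -0.02, and its called values ran from -0.62 to 0.45. BCL2L11, which encodes the death-promoting protein BIM, was at 31.6, 38 and 33.3 CPM in the sh5 libraries, against 45.4, 50.5 and 60.9 CPM in the NT libraries (-0.61 ± 0.08, adjusted p = 1.45e-05), with the highest sh5 library below the lowest NT library. It was the single gene of 26 in the BCL2 and death receptor list to fall, and 6 rose, with the death receptor gene TNFRSF1A at 0.63 ± 0.09. The 26.9% called in that list is below the 32.8% over all genes.

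In the list of thiopurine, cytarabine and folate handling, 9 of 28 rose and 2 fell, beside 17.7% higher and 15.1% lower over all genes. Without the block 5 rose and 1 fell. SLC19A1, the folate carrier that brings in methotrexate, changed by 0.49 ± 0.05 (adjusted p = 9.84e-07). SAMHD1, which breaks down the active form of cytarabine, changed by 0.43 ± 0.05, and NT5C2, a nucleotidase tied to thiopurine resistance, by 0.24 ± 0.05. DCK, the kinase that activates cytarabine, fell by 0.16 ± 0.04 on the log2 scale. Of 19 ABC transporters 5 rose and 6 fell, or 57.9% called against 32.8% of all genes. ABCA3 averaged 10.7 ± 0.848 CPM with sh5 and 3.66 ± 0.481 CPM with NT (1.55 ± 0.10, adjusted p = 1.51e-09), and ABCB1, the multidrug efflux pump, averaged 0.548 ± 0.0637 CPM with sh5 and 2.37 ± 0.487 CPM with NT (-2.09 ± 0.25, adjusted p = 2.47e-06).

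Cholesterol and glycolysis genes fell more often than they rose. Of 29 genes of cholesterol synthesis and uptake, 14 fell and 2 rose, with a median of -0.14. HMGCS1, an early enzyme of the pathway, was at 355, 409.8 and 426 CPM in the sh5 libraries, against 483, 531 and 563 CPM in the NT libraries (-0.41 ± 0.05, adjusted p = 2.35e-06), and the regulators SREBF1 and SREBF2 changed by -0.39 ± 0.05 and -0.17 ± 0.05. The sterol response letters TCACNCCAC occurred in the promoter window of 1 of 22 of these genes (4.55%), SREBF2, and in 313 of 27305 windows (1.15%). Of 33 genes of glycolysis and hypoxia, 15 fell and 1 rose, but without the block 3 fell and none rose. PFKFB4, a regulator of glycolysis, was at 45.9, 52 and 89.3 CPM in the sh5 libraries, against 83.9, 93.8 and 140.4 CPM in the NT libraries (-0.79 ± 0.05, adjusted p = 1.07e-09). The arms overlapped, replicate 3 was highest in both, and within each number the sh5 library was lower. ADM, which encodes the hypoxia-induced peptide adrenomedullin, had the lowest value of the called genes in that list (-1.65 ± 0.34, adjusted p = 9.75e-04). VEGFA, the angiogenic factor induced by hypoxia, changed by -0.64 ± 0.06 (adjusted p = 1.18e-07).

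**Figure D4:**
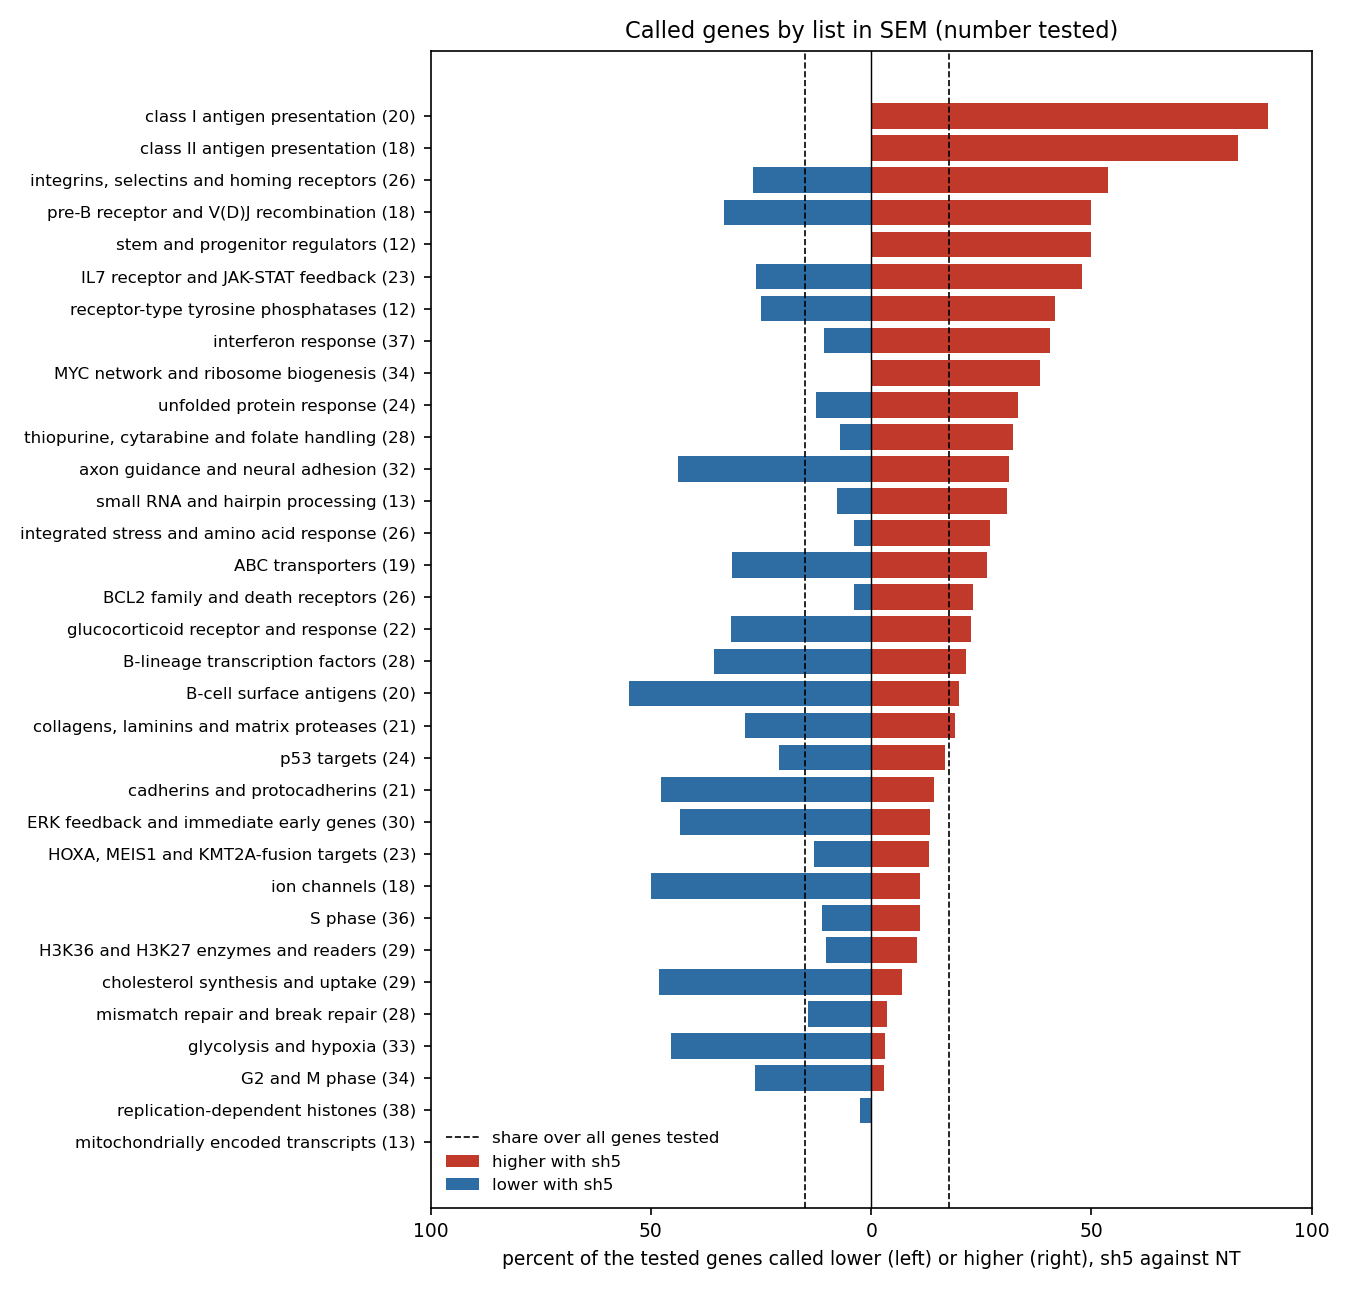
Share of the tested genes of each list called higher (red, right) or lower (blue, left) with sh5 in SEM, with the number tested after each name and dashed lines at the shares over all genes tested, 17.7% and 15.1%. Class I and class II antigen presentation reach farthest to the right, and B-cell surface antigens and ion channels farthest to the left.

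Growth and stress lists were called at total shares near that of all genes, 32.8%, or somewhat above it, but in some of them the calls lay mostly on 1 side. Over all genes tested 17.7% were higher and 15.1% lower. Of 34 genes of the MYC network and ribosome biogenesis, 13 rose and none fell (38.2% called, 5 without the block), although MYC itself did not change past the test (-0.00 ± 0.04, adjusted p = 0.97), and MXD1 and MXD4, antagonists of MYC, rose most of the 13 (0.55 and 0.50). Of 26 genes of the integrated stress response 7 rose and 1 fell (30.8% called, 1 and 1 without the block), with ATF4 at 0.14 ± 0.05. Of 24 unfolded protein response genes 8 rose and 3 fell (45.8% called, 2 and 3 without the block). Of 24 p53 targets 4 rose and 5 fell (37.5% called), with SESN1 at 79.9, 76.8 and 82.1 CPM in the sh5 libraries, against 43.7, 44.5 and 42.5 CPM in the NT libraries (0.87 ± 0.05, adjusted p = 2.67e-10) and the p53 antagonist MDM2 at -0.25 ± 0.04.

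Cell cycle and repair genes were called no more often than the 32.8% of all genes. In S phase genes 4 of 36 rose and 4 fell, with 1 and none without the block. In G2 and M phase genes 1 of 34 rose and 9 fell, beside 17.7% higher and 15.1% lower over all genes. Without the block none rose and 8 fell. CDK1 was at -0.24 ± 0.05 (adjusted p = 3.51e-04). Of 38 replication-dependent histone genes 1 was called, and none of 13 mitochondrially encoded transcripts, all of which had negative log2 fold changes with a median of -0.20. Mismatch and break repair genes gave 1 higher and 4 lower of 28, among them MSH6 (-0.20 ± 0.04), which takes part in the recognition of mismatches. The machinery that processes hairpins gave 4 higher and 1 lower of 13, with AGO2, the slicer of small RNA silencing, at 52.8, 56.8 and 51.9 CPM in the sh5 libraries, against 37.6, 41.9 and 39.8 CPM in the NT libraries (0.44 ± 0.06, adjusted p = 5.24e-06).

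The hairpins sh5 and sh2 were then set directly against each other, by a contrast within the fit of the 9 SEM libraries, in which the NT libraries help to set the spread and the block. Of 17042 genes 3532 differed, or 20.7%, of which 2050 (12%) were higher and 1482 (8.7%) lower with sh5, and 2105 differed without the block. Against NT, sh2 gave 6455 calls (37.9%), 3294 higher (19.3%) and 3161 lower (18.5%). NSD2 was lower with sh5, at 132, 146 and 146 CPM with sh5 and 166, 173 and 179 CPM with sh2 (-0.29 ± 0.04, adjusted p = 5.50e-05). Against the shared NT libraries, NSD2 changed by -1.28 ± 0.04 with sh5 and -0.99 ± 0.04 with sh2.

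PLCB1 and ITGA9 rose with sh5 and did not rise with sh2. PLCB1 averaged 15.5 ± 1.48 CPM with sh5, 0.858 ± 0.0997 with sh2 and 1.64 ± 0.172 with NT, and the direct difference was 4.17 ± 0.14 (adjusted p = 1.30e-13). Against NT, the sh2 libraries were lower in PLCB1 (-0.93 ± 0.18, adjusted p = 4.99e-04). ITGA9 averaged 29.1 ± 1.58 CPM with sh5, 3.09 ± 0.243 with sh2 and 3.84 ± 0.29 with NT (3.24 ± 0.09, adjusted p = 1.38e-14), and sh2 against NT was -0.31 ± 0.11 (adjusted p = 0.0333). TENM3, a teneurin adhesion molecule, led the genes higher with sh5 than with sh2, at 18.1, 26.8 and 29.4 CPM with sh5, 1.25, 1.22 and 0.604 with sh2 and 6.42, 5.38 and 6.03 with NT (4.58 ± 0.29, adjusted p = 5.71e-05). TCF4, a basic helix-loop-helix factor, averaged 14.5 ± 1.54 CPM with sh5, 1.31 ± 0.23 with sh2 and 6.69 ± 0.506 with NT. For TENM3 and TCF4, then, the NT libraries lay between the hairpins.

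Other genes were lowest with sh2. MYRIP, which links vesicles to a myosin motor, averaged 18.7 ± 1.18 CPM with sh5, 1.85 ± 0.397 with sh2 and 17.1 ± 0.578 with NT (3.32 ± 0.11, adjusted p = 1.30e-13). TENM4 averaged 8.53 ± 0.974 CPM with sh5, 0.623 ± 0.122 with sh2 and 11.8 ± 1.56 with NT, and WLS, which carries Wnt proteins to the surface, averaged 6.28 ± 0.484 CPM with sh5, 0.542 ± 0.116 with sh2 and 10.3 ± 0.685 with NT. CDH2 was at 31.7 ± 0.851 CPM with sh5, 3.56 ± 0.535 with sh2 and 62.5 ± 3.16 with NT (3.15 ± 0.09, adjusted p = 9.86e-15).

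In the opposite direction, NES, the intermediate filament nestin, was at 1.82, 2.06 and 1.80 CPM with sh5, 11.5, 12.1 and 12.1 with sh2 and 1.02, 0.78 and 0.934 with NT (-2.65 ± 0.13, adjusted p = 1.93e-11). EYA4, a phosphatase and coactivator, averaged 8.42 ± 0.239 CPM with sh5, 28.2 ± 0.871 with sh2 and 11.1 ± 1.25 with NT. The metalloprotease ADAM19 averaged 15.7 ± 1.76 CPM with sh5, 44.7 ± 4.75 with sh2 and 15.5 ± 0.188 with NT. CTSW (-1.98 ± 0.18), TGFB1I1 (-1.96 ± 0.16) and IGLL5 (-2.43 ± 0.16) were likewise lower with sh5 than with sh2.

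Among the 12 genes that rose most with sh5, 10 were farther from NT with sh5 than with sh2 by the direct test, ANGPT1 was closer and NAPSB did not differ. Among the 12 that fell most, 3 were farther, 7 closer and 2 did not pass. These genes were chosen on the same sh5 libraries that the direct test uses, so the counts describe them and are no independent evidence. PTPRK, for example, averaged 9.35 ± 1.04 CPM with sh5, 1.16 ± 0.16 with sh2 and 45.4 ± 3.32 with NT (3.01 ± 0.13, adjusted p = 2.62e-12).

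**Figure D5:**
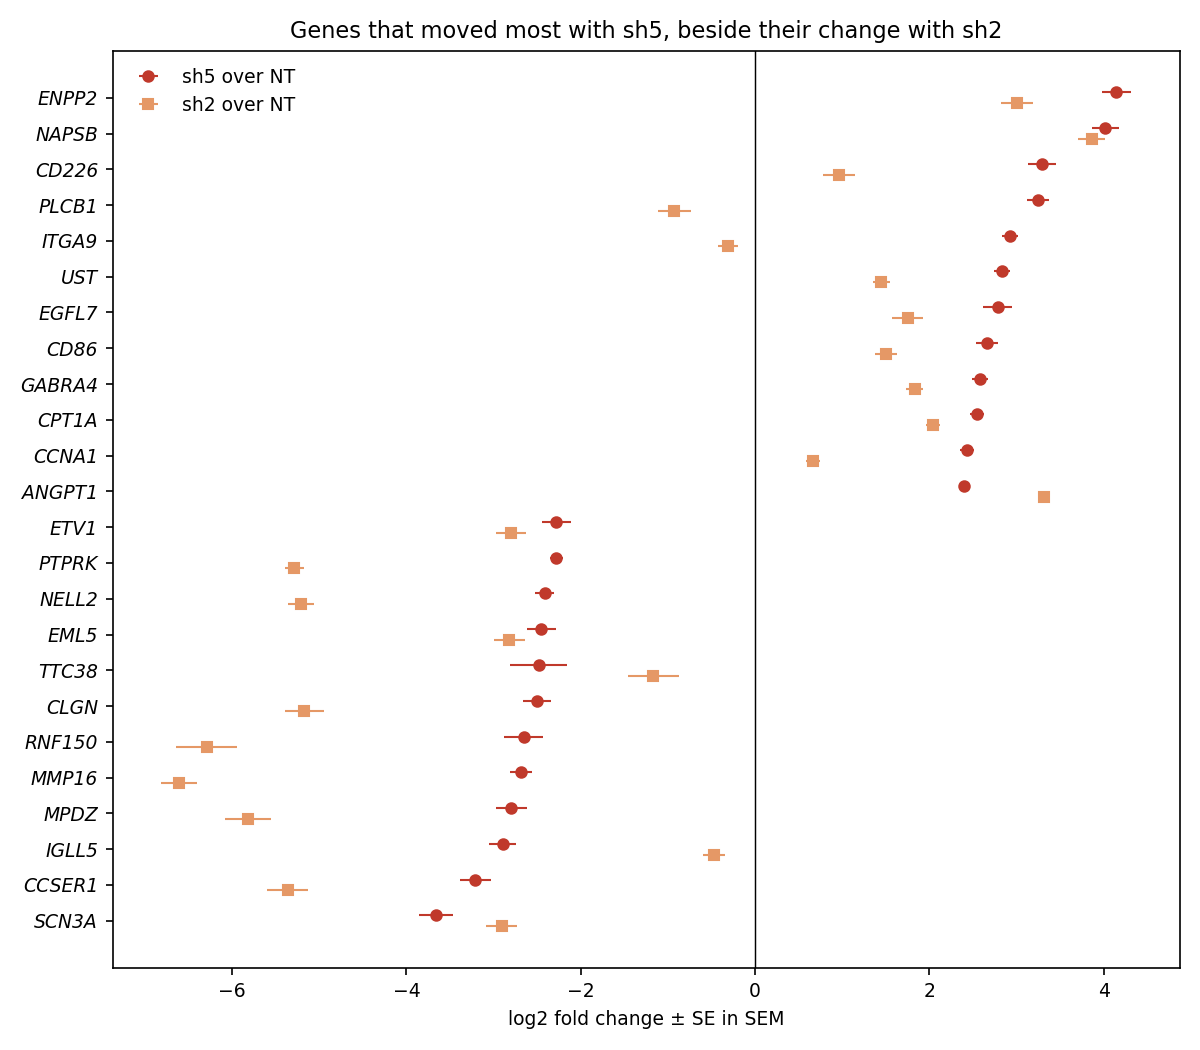
Log2 fold change ± SE over NT in SEM of the 12 genes that rose and the 12 that fell most with sh5, red circles for sh5 and orange squares for sh2, which share the NT libraries. PLCB1 and ITGA9 lie above 2.9 with sh5 and below 0 with sh2, and MMP16 lies at -2.69 with sh5 and -6.61 with sh2.

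Against the same NT libraries, 16 of the 20 class I genes rose and 1 fell with sh2 (median 0.37), and 15 of the 18 class II genes rose and none fell (median 0.49). In the direct comparison, where 12% of all genes were higher and 8.7% lower with sh5, 3 of the 20 class I genes were higher and 4 lower with sh5 than with sh2, and of the 18 class II genes 2 were higher and 6 lower. TAP1 was at 62.8, 63 and 59.7 CPM with sh5 and 69.2, 70.8 and 67.6 CPM with sh2 (-0.16 ± 0.05, adjusted p = 0.0198). Of 37 interferon response genes 12 were higher and 4 lower with sh5 than with sh2, ISG20 among the higher at 44.3 ± 1.83 CPM with sh5, 19.8 ± 0.878 with sh2 and 23.4 ± 1.98 with NT. RAG2, raised with sh5, was at 2.10, 2.82 and 3.20 CPM with sh2 (1.53 ± 0.14, adjusted p = 1.16e-07). LYZ averaged 1.35 ± 0.483 CPM with sh2 and was higher with sh5 (2.10 ± 0.17, adjusted p = 2.30e-08). Of 29 cholesterol genes 10 were higher and none lower with sh5 than with sh2, HMGCS1 among them at 397 ± 37 CPM with sh5 and 340.4 ± 7.86 CPM with sh2.

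The sh5 hairpin was also used in RS411, which shares the KMT2A-AFF1 fusion with SEM, and in RCH, which lacks it, each against its own NT libraries, 3 and 3 per line. In a fit of these 18 libraries, 3196 of 19554 genes were called in SEM (16.3%, 7.91% higher and 8.43% lower), 699 in RS411 (3.57%, 2.18% higher and 1.4% lower) and 805 in RCH (4.12%, 1.98% higher and 2.14% lower). No library was shared between the lines. Of the 426 genes higher in RS411, 174 were higher in SEM, which is 40.8% of the RS411 list and 11.2% of the 1547 in SEM, and 50 were lower in SEM. Of the 273 lower in RS411, 167 were lower in SEM (61.2% and 10.1% of the 1649 in SEM) and 7 higher. Of the 387 higher in RCH, 118 were higher in SEM (30.5% and 7.63%) and 34 lower. Of the 418 lower in RCH, 202 were lower in SEM (48.3% and 12.2%) and 28 higher.

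In all 3 lines 41 genes rose and 47 fell with sh5. Among the 41 was LMO2, averaging 60.8 ± 14.4 CPM with sh5 and 41.5 ± 5.49 CPM with NT in RS411 and 61.8 ± 7.98 CPM with sh5 and 39.3 ± 1.53 CPM with NT in RCH (SD, n = 3 each). HLA-DQA1 rose by 0.72 ± 0.10 in RS411 and 0.54 ± 0.10 in RCH. IRF8, STAT5A, SAMHD1, IKZF2 and BANK1 are also among the 41. NSD2 had log2 fold changes of -0.84 ± 0.11 in RS411 and -0.82 ± 0.11 in RCH, and NEO1 of -1.25 ± 0.14 and -0.90 ± 0.12, with EPHA7 and PTPRG also among the 47.

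The response in SEM differed from the mean response of RS411 and RCH for 1343 of 19554 genes (6.87%), 617 higher (3.16%) and 726 lower (3.71%). Class I genes were among them. TAP1 averaged 70.8 ± 4.22 CPM with sh5 and 61.9 ± 3.16 CPM with NT in RS411, and 146 ± 27.2 CPM with sh5 and 138 ± 9.13 CPM with NT in RCH, and the difference of the SEM response was 0.72 ± 0.10 (adjusted p = 6.14e-05). NLRC5 had a difference of 1.01 ± 0.10 (adjusted p = 7.95e-07) and HLA-B of 0.57 ± 0.10 (adjusted p = 7.77e-04). A higher response in SEM was called for 8 of the 20 class I genes and none of them had a lower one, and for 1 of the 18 class II genes, HLA-DQA1 (0.72 ± 0.14, adjusted p = 0.00202).

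The fall of the surrogate light chain also differed between lines. VPREB1 averaged 397 ± 36 CPM with sh5 and 408 ± 38.9 CPM with NT in RS411, and 217 ± 14.8 CPM with sh5 and 267 ± 25.5 CPM with NT in RCH, with a difference of the SEM response of -0.81 ± 0.11 (adjusted p = 8.14e-05). IGLL1 had one of -0.80 ± 0.11 (adjusted p = 9.55e-05). CSF1R averaged 8.08 ± 2.32 CPM with sh5 and 7.30 ± 0.547 CPM with NT in RS411 and 19.6 ± 5.44 CPM with sh5 and 21.4 ± 3.20 CPM with NT in RCH, a difference of 1.46 ± 0.15 (adjusted p = 1.76e-06). ITGA9 was called in SEM and in neither of the other lines, with 1.55 ± 0.868 CPM with sh5 and 1.82 ± 1.27 CPM with NT in RS411 and 11.7 ± 2.07 CPM with sh5 and 14.1 ± 0.473 CPM with NT in RCH (3.15 ± 0.16, adjusted p = 1.19e-10). The number of genes in this comparison moved with the libraries used, from 658 to 848 when any 1 of the 6 SEM libraries was left out, to 377 without the replicate block, and to 2094 and 2045 without RCH NT replicate 3 and RCH sh5 replicate 3.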

How the data were processed

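For SEM, RS411 and RCH the authors deposited whole-number read counts per gene. For SEM the authors deposited signal values too, for 16383 genes, against 57820 rows of counts. For those genes they are the counts divided by 1 factor per library, as checked on the files. Per the labels' protocols, RNA was prepared with RNeasy kits and TruSeq stranded total RNA reagents with RiboZero Gold. Per the submitters' processing notes, Trimmomatic, STAR and featureCounts were used on hg19. The sources used here do not give their versions or the strand setting of the counting, so reads of overlapping and antisense genes may be mixed. Rows whose names a spreadsheet had changed into dates, 27 per cell line, were dropped (0.23% of SEM reads).

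The test was edgeR 4.0.16 under R 4.3.3 (TMM factors, filterByExpr by arm, robust glmQLFit and glmQLFTest), with the 9 SEM libraries in 1 fit and the replicate number as block. SEM against RS411 and RCH used 18 libraries with the number within line as block. The numbers pair the SEM libraries: deviations from the arm means correlated at 0.212 to 0.640 for the 9 same-number pairs (11317 genes). Other numbers correlated at -0.443 to 0.0785. Between sh5 and NT of RS411, same-number pairs correlated at 0.415 to 0.666 and other numbers at -0.513 to 0.0865. In RCH, same-number pairs gave 0.334 to 0.749. Numbers 2 and 3 of RCH were less clearly paired, as their crossed pairs gave 0.350 and 0.373. SEs were derived from the F statistics. On simulated counts for SEM sh5 against NT, with 200 of 16694 genes changed, all 100 genes changed by 0.75 and all 100 changed by 1.5 (log2) were called, and 3 of 16494 unchanged genes. The simulated counts had no replicate-number effect, and the changed genes were drawn from those with at least 5 CPM. Genes called in the data had a median absolute log2 fold change of 0.336, a size that was not simulated. Replicates differed by more than counting noise (chi-square per gene at least 16.8). Alternatives were DESeq2 1.42.0, RLE factors, other filters, no block, limma 3.58.1 on log2(normalized value + 1), the compared arms alone and each library left out.

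Named genes are NSD2, the 12 largest changes in each direction (called, arms without overlap, at least 5 CPM in 1 arm, 6 and 6 for sh5 against sh2 and for SEM against the other lines, leaving out clones, small RNAs and LOC names), and members of 39 gene lists (951 genes, 7 unmatched, 800 tested in SEM). The comparison, lists and rules were chosen with earlier results of these data known. Promoter sequences are RefSeq's, GRCh38.p14. Some list members are counted but not reported by name here.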

Additional observations from a re-analysis of the deposited data

Results flagged for a closer look

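The SEM response to sh5 was tested against the mean response of RS411 and RCH, and 126 of the 799 list members in the fit of 3 lines differed, against 1343 of all 19554 genes (6.87%). The lists were chosen with earlier results of these data known, so these counts are no independent evidence. Below, differences are log2 values from that test, SEM minus the other lines. NSD2 itself differed by -0.45 (adjusted p = 0.0397), a call kept in 7 of 22 alternatives and lost when any 1 SEM library was left out.

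Of the genes that rose most in SEM, ENPP2 differed by 3.33, CD226 by 3.34, PLCB1 by 2.92, ITGA9 by 3.15, UST by 3.11, EGFL7 by 2.60, CD86 by 2.39, GABRA4 by 4.79, CPT1A by 2.28 and CCNA1 by 2.19. They were chosen on the same SEM libraries that the test uses, so these values describe them and are no independent evidence. SLC1A3, a glutamate transporter, differed by 3.02. PLCB1 was well measured in every line, at 181 ± 8.45 CPM with sh5 and 145 ± 27.3 CPM with NT in RS411 and 27.7 ± 1.80 CPM with sh5 and 22.4 ± 0.608 CPM with NT in RCH. ENPP2, GABRA4 and SLC1A3 had few reads in RS411, at most 9, 1 and 2 with sh5 and 3, 5 and 4 with NT, so their fitted differences depend on the prior count. Their calls were kept in 18 of 22, 20 of 22 and 15 of 21 alternatives, while CD226, PLCB1, ITGA9, UST, EGFL7, CD86, CPT1A and CCNA1 kept theirs in all 22.

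Of the genes that fell most, also chosen on these SEM libraries, SCN3A differed by -3.09, IGLL5 by -2.39, TTC38 by -2.66, EML5 by -1.43 and PTPRK by -1.23. EML5 kept its call in 9 of 22 alternatives and the other 4 in all 22. EML5 also had fewer reads with sh5 in RCH, at 76, 80 and 138, against 351, 278 and 555 with NT. SCN3A had fewer in RCH too, at 119, 198 and 220 with sh5, against 260, 400 and 425 with NT. In RS411, PTPRK had 76, 65 and 142 reads with sh5, against 304, 381 and 203 with NT. The falls of EML5, SCN3A and PTPRK were thus not particular to SEM.

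ADAMTS1, a secreted protease, differed by -4.50, PCDH9 by -4.38, SCAND3 by -4.31, SLC7A2, a carrier of cationic amino acids, by -3.58, the imprinted gene ZDBF2 by -3.54 and the neural adhesion gene NRCAM by -3.49. Several of these values rest on few reads in RS411. ADAMTS1 had 36, 2 and 0 reads in the 3 RS411 sh5 libraries, SLC7A2 28, 1 and 2, and NRCAM 35, 0 and 0, against at most 2 reads in any RS411 NT library, and each lost its call without RS411 sh5 replicate 1, without RS411 NT replicate 1 and without the replicate block. The source of these reads in RS411 sh5 replicate 1 was not tested. PCDH9 had 380, 206 and 839 reads in the RS411 sh5 libraries, against 5, 11 and 6 reads in the RS411 NT libraries, so sh5 went with a higher level in RS411 and a lower one in SEM, 2.05 ± 0.0423 CPM with sh5 and 7.67 ± 0.131 CPM with NT. RCH went the way of SEM, with 545, 962 and 732 PCDH9 reads with sh5 and 1128, 1700 and 1654 with NT. ADAMTS1 was also lower in RCH, with 135, 134 and 230 reads with sh5 and 308, 305 and 662 with NT. SLC7A2 had 1407, 2306 and 3396 reads with sh5 in RCH, against 2384, 3271 and 6918 with NT, lower within each replicate number. The falls of PCDH9, ADAMTS1 and SLC7A2 were thus not particular to SEM. Read counts are not scaled to library totals. Each RCH sh5 library had fewer reads in total than the RCH NT library of its number. SCAND3 had at most 3 reads in any RS411 or RCH library, so its fitted value depends on the prior count, and its call was kept in 16 of 22. ZDBF2 had 46, 9 and 74 reads in the RS411 sh5 libraries, against 3, 0 and 2 in the RS411 NT libraries, so its value too rests in part on a higher level in RS411. ZDBF2 and PCDH9 kept their calls in all 22 alternatives.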

How the results depend on the processing

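Without the replicate block, 3623 genes were called for sh5 against NT, 2105 for sh5 against sh2 and 377 for SEM against the other lines. Nearly all were among the calls with the block (3622, 2104 and 373), and the cause of the lower counts was not tested. With single libraries left out, counts ran from 4362 to 5341 for sh5 against NT, from 2379 to 4004 for sh5 against sh2, and from 658 to 2094 for SEM against the other lines, where the RS411 and RCH libraries were left out as an alternative chosen after seeing the data. Called list members ran from 327 to 370, against 377. The NSD2 change ran from -1.31 to -1.26 over 16 alternatives, with adjusted p of at most 1.87e-09. All 383 values of the 24 genes that moved most kept their direction and call. Genes with a few reads per library, such as SCN3A with sh5, carry counting error that limits their fold changes.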
